A study of Mus musculus with 5 samples.

Results

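The genes described here are 45 cell cycle genes named by symbol, out of 21995 genes in the count matrix. They are 17 of S phase, 26 of mitosis and 2 that were not assigned to a phase (Stmn1 and Cks1b). They were chosen with earlier results of these data known. All 45 were present and all 45 passed the filter on low counts, with 12092 genes tested in all. Neutrophils were sorted as DAPI-, CD11b+, Ly6G+ cells from 6 sources, namely bone marrow, blood, spleen, liver, lung and intestine, of untreated C57BL/6 mice, an inbred laboratory strain, kept at steady state under specific pathogen-free conditions. The young group was aged 10 weeks in the labels of the samples but 8 weeks in the description of the series, and the old group 20 months. Whole-transcriptome libraries were made in microwells on the BD Rhapsody system, in which a captured mRNA is counted once through its unique molecular identifier (UMI), and the experiment was done in 2 rounds, each pooled in its own cartridge. The pools are called YO1 and YO2. Each held cells of young and old mice, and since cell barcodes named only the pool, tissues and ages were not compared here.

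Dividing cells copy their DNA in S phase and separate the copies in mitosis, and each phase has its own set of genes. S-phase genes encode the helicase that opens DNA, the clamp that holds the polymerase and the enzymes that make deoxynucleotides, and they are switched on by E2F transcription factors. Mitotic genes encode cyclins A and B, mitotic kinases, kinetochore proteins and spindle motors, and many are controlled through CCAAT boxes and the cell cycle homology region (CHR) bound by the DREAM and MuvB complexes. Neutrophil precursors divide in the bone marrow while they make azurophil granules (Elane, Mpo, Prtn3) and then specific granules (Camp, Ngp, Ltf). They stop dividing before gelatinase granules and release to the blood.

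The study asked how neutrophils differ between tissues, and the question here is which sorted cells carried the division program and at which stage it ended. After cells with under 200 UMIs, under 100 genes or at least 20% mitochondrial UMIs were removed, 19505 cells of YO1 and 17215 of YO2 were left, with median depths of 1231 and 1454 UMIs. Each cell took the first class it met. Azurophil progenitors had at least 10 UMIs of Elane, Mpo and Prtn3 together. Other cells with at least 10 UMIs of Camp and Ngp were Ltf-high with at least 5 Ltf UMIs and Ltf-low with fewer. Mature neutrophils had at least 2% S100a8 and S100a9 and under 3 Ngp UMIs. The remaining named classes had at least 2 UMIs of Jchain (plasma cells), C1qa (macrophages), Cd79a (B cells) or Cd3e (T cells). There were 142 azurophil progenitors in YO1 and 0 in YO2, 2800 and 514 Ltf-high cells, 518 and 40 Ltf-low cells, and 10336 and 10058 mature neutrophils. Levels below are CPM, the UMIs of a gene scaled to the total UMIs of the class in its pool, and intervals are exact 95% Poisson or Clopper-Pearson intervals, which cover counting error only.

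The classes were checked against fixed marker lists. The 6 markers of mature neutrophils were above 10 CPM in every class, and their sum was 83650 and 72529 CPM in mature cells, below the 138014 and 139784 CPM of Ltf-high and the 137525 and 118727 CPM of Ltf-low cells, so that sum did not set mature cells apart. All 7 azurophil progenitor markers, Cd34 and Kit among them, were above 10 CPM in the azurophil class. Elane, Mpo and Prtn3 are among these markers and define the class, so for them this was set by the rule. That class also held the eosinophil granule genes Prg2 at 4793 CPM and Epx at 448 CPM, and 7 of its cells had at least 2 UMIs of these genes. All 4 basophil markers were above 10 CPM in it, at a sum of 791 CPM, the highest of the classes, and their part in its values was not tested. Without these 7 cells, the S-phase sum of the class was 3193 CPM in place of 3128 CPM. The Ltf-low class of YO2 held plasma cell markers at 66930 CPM, and 2 of its 40 cells also met the Jchain rule. Late genes marked nearly all Ltf-low cells: 492 of 518 in YO1 and 39 of 40 in YO2 had at least 5 UMIs of Retnlg and Mmp8. Ltf-low cells here were therefore late by these genes, not a step between the azurophil and the Ltf-high class. The pools shared 406 cell-label numbers. No doublet caller was run. Some cells of the neutrophil classes also met the Jchain, C1qa, Cd79a or Cd3e rule. Without them, counts of called members in the contrasts of neutrophil stages moved by at most 1. Azurophil cells that also met the Camp and Ngp rule were kept in this check.

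The promoters of 8 members, chosen after their values were seen, are shown because the 2 lists differ in their letters and because 3 of the 8 genes did not go silent with the rest. The stretches run from 150 bases before to 30 bases after the annotated start, 5′ to 3′ on the gene's strand, from RefSeq with the coordinates of GRCm38.p6. Capitals mark the CHR letters TTTGAA or TTCGAA, the CCAAT box letters CCAAT and the E2F letters, which are any of TTCCCGC or TTGGCGC or TTCGCGC or TTGCCGC, read on both strands. TTCGAA is its own reverse complement, ATTGG is CCAAT on the other strand, and E2F letters on opposite strands can overlap. The first 3 are mitotic genes that fell sharply (a topoisomerase, an activator of the anaphase-promoting complex and its ubiquitin-conjugating enzyme), the next 3 are mitotic genes still seen in mature cells, and the last 2 encode subunits of the MCM replication helicase.
Top2a (chr11:99024160-99024339, minus strand): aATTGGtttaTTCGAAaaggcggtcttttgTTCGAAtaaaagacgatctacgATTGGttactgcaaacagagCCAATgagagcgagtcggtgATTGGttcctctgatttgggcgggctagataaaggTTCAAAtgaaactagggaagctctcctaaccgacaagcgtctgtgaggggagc
Cdc20 (chr4:118437314-118437493, minus strand): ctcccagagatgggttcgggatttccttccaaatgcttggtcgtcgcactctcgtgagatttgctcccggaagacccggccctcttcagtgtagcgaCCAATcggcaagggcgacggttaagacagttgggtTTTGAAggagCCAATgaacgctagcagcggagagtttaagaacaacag
Ube2c (chr2:164769779-164769958, plus strand): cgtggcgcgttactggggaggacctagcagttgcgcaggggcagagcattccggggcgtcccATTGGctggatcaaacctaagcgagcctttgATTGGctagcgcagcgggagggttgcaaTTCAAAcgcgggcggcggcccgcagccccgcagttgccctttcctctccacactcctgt
Cks2 (chr13:51645082-51645261, plus strand): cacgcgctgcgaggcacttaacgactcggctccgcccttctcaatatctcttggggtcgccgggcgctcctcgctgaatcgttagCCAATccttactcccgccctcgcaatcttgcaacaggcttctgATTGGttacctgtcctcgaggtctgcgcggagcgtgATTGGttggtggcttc
Kif23 (chr9:61946770-61946949, minus strand): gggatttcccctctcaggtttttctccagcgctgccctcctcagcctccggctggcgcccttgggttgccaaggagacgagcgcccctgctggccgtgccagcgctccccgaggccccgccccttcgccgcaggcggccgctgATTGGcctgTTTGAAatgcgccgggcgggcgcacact
Cenpa (chr5:30666736-30666915, plus strand): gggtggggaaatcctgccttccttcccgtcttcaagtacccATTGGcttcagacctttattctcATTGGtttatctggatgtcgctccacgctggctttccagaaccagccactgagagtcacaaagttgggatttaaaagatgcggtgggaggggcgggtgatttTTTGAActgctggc
Mcm6 (chr1:128359676-128359855, minus strand): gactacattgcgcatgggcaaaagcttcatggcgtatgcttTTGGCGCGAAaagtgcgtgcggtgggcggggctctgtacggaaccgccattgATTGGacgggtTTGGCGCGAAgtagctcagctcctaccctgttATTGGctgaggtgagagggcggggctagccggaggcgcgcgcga
Mcm3 (chr1:20820283-20820462, minus strand): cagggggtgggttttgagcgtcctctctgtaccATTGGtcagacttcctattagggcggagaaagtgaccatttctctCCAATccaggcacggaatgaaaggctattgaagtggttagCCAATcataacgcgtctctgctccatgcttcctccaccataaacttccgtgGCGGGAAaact

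Windows of 300 bases were found for 37 of the 45 members. CHR letters stood in 17 of 22 mitotic windows (77.3%), in 2 of 14 S-phase windows (14.3%) and in 16.1% of 15281 windows of genes in the count matrix. CCAAT stood in 20 of 22 mitotic and 10 of 14 S-phase windows, against 38% of all windows. E2F letters stood in 9 of 14 S-phase windows (64.3%), in 3 of 22 mitotic windows (13.6%) and in 13.6% of all. Every mitotic window with CHR letters also had CCAAT. Kif23 and Cenpa, which were still seen in mature cells, had CHR letters like Top2a, Cdc20 and Ube2c, while the Cks2 window had CCAAT at 4 places, 3 of them in the stretch shown, and no CHR letters. A match of letters is a description of the sequence and not a bound site.

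Among the neutrophil classes, the division program was strongest in azurophil progenitors and strong in Ltf-high cells, and it was low in Ltf-low and mature cells. The 17 S-phase genes summed to 3128 CPM (3034 to 3224) in the azurophil progenitors of YO1. They summed to 975 CPM (957 to 994) in Ltf-high cells of YO1 and 328 CPM (306 to 352) in those of YO2. Ltf-low cells held 47.9 CPM (35.8 to 62.8) and 40.4 CPM (13.1 to 94.2), and mature cells 48.6 CPM (44.8 to 52.6) and 37.2 CPM (34.3 to 40.3). Ltf-low and mature cells had overlapping intervals within each pool, and both pools of Ltf-high cells lay above them.

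These levels moved with how cells were chosen. With classes cut by share of UMIs (Camp and Ngp at 0.5%, Ltf at 0.25%), Ltf-low cells of YO1 held 383 CPM for S phase and 970 CPM for the 26 mitotic genes, in place of 47.9 and 281 CPM, and those of YO2 held 14.7 and 376 CPM. Without the 2 cells that also met the Jchain rule, the S-phase sum of Ltf-low cells of YO2 was 18.1 CPM in place of 40.4 CPM. Without the deepest 5% of cells in each pool, Ltf-high cells held 554 and 227 CPM for S phase and 1685 and 1386 CPM for the mitotic list, against 975 and 328 CPM and 3047 and 2231 CPM with them. That filter left 27 of 142 azurophil progenitors, too few to be fitted, at 3283 CPM for S phase and 3934 CPM for the mitotic list. Ltf-high cells stayed above Ltf-low and mature cells in both pools under each of these 3 settings.

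The full mitotic list did not fall to the same floor. Its 26 genes summed to 5661 CPM in azurophil progenitors, to 3047 and 2231 CPM in Ltf-high cells of YO1 and YO2, to 281 and 331 CPM in Ltf-low cells and to 543 and 607 CPM in mature cells. Cks2, Kif23 and Cenpa made up most of what was left in mature cells. The other 23 mitotic genes, a list trimmed after the values were seen and used only to describe, summed to 4750 CPM (4634 to 4869) in azurophil progenitors. They summed to 2545 CPM (2515 to 2575) and 1713 CPM (1662 to 1766) in Ltf-high cells, to 46.0 CPM (34.2 to 60.7) and 16.2 CPM (1.96 to 58.3) in Ltf-low cells, and to 32.8 CPM (29.7 to 36.1) and 23.3 CPM (21.0 to 25.7) in mature cells. Ltf-high cells were 14.4% of the cells of YO1 and held 67.6% of that pool's UMIs of these 23 genes, and they were 2.99% of the cells of YO2 and held 41.1%. The 142 azurophil progenitors, 0.728% of YO1, held 15.4%. Cells in no class, 26.5% and 30.2% of the cells of YO1 and YO2, held 14.1% and 39.7% of these UMIs. Of the S-phase UMIs, Ltf-high cells held 53.8% in YO1 and 12.8% in YO2. Cells in no class held 18.9% and 53.8% of them, so in YO2 most S-phase UMIs lay outside the named classes.

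**Figure D1:**
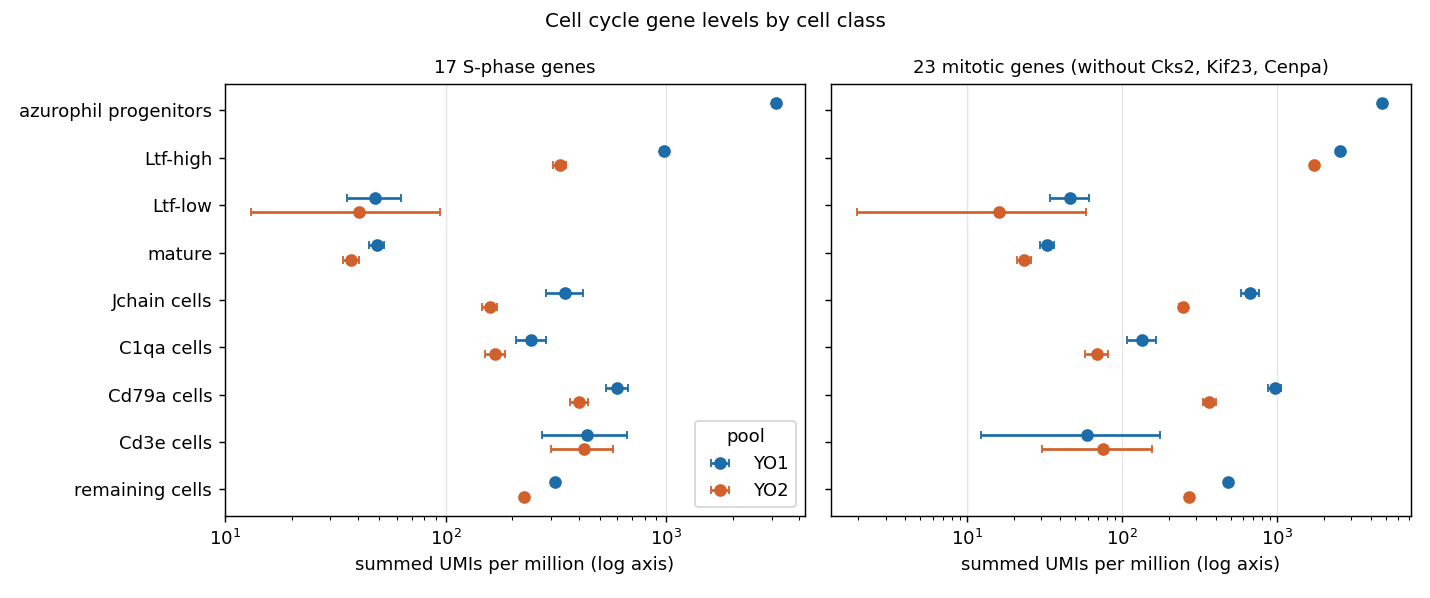
Summed CPM (log axes) of the 17 S-phase genes (left) and of 23 mitotic genes without Cks2, Kif23 and Cenpa (right) in each class and pool, with exact 95% counting intervals. Azurophil progenitors and Ltf-high cells lie at 328 to 4750 CPM and Ltf-low and mature cells at 16.2 to 48.6 CPM. The lymphoid and macrophage classes lie between, within or near these ranges. In YO2, Cd79a and Cd3e cells lie above Ltf-high cells for S phase.

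The same order was seen per cell with the lists counted at equal depth, where Ltf-low cells are given for the S-phase list only. Classes were those set at full depth. Cells were thinned to 1000 UMIs, shallower cells left out, and counted as positive with at least 2 UMIs of a list. Of 136 azurophil progenitors, 65.4% (56.8 to 73.4) were positive for the S-phase list and 68.4% (59.9 to 76.1) for the 23 mitotic genes. Of Ltf-high cells, 13.6% (12.3 to 14.9) of 2750 in YO1 and 5.17% (3.404 to 7.48) of 503 in YO2 were positive for S phase, and 20.0% (18.5 to 21.5) and 12.3% (9.58 to 15.5) for the mitotic genes. Among Ltf-low cells, 0 of 493 in YO1, which allows a share of up to 0.745%, and 0 of 40 in YO2, up to 8.81%, were positive for S phase. Mature neutrophils gave the background, at 0.215% and 0.101% for S phase and 0.215% and 0.134% for the mitotic genes. With the full list of 26, 10.8% and 14.1% of mature cells were positive, against 21.6% and 14.3% of Ltf-high cells. Depth differed between the classes before thinning, with median UMIs of 9375 in azurophil progenitors, 3295 and 4415 in Ltf-high cells, and 1029 and 1353 in mature cells, and 4746 mature cells of YO1 and 1115 of YO2 were too shallow to be counted.

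S-phase genes, but few mitotic genes, were lower in Ltf-high cells than in azurophil progenitors. Tests used edgeR's quasi-likelihood test on UMIs summed per pool and class, with the pool as a block and Benjamini-Hochberg adjustment over 12092 genes at 0.05. This contrast was added after the data were seen, and its azurophil side is 1 sum, assumed to vary like the others. With 16.3% of all genes called higher and 18.9% lower in azurophil progenitors, 13 of 17 S-phase genes, 2 of 26 mitotic genes and both unassigned genes were called higher, and 0 lower. The median log2 difference was 1.58 for the S-phase list and 0.22 for the mitotic list, against -0.07 for all genes. With total UMIs in place of TMM, the median over all genes moved to 0.53, and 17 S-phase and 14 mitotic genes were called, so the mitotic count depends on the scaling. The medians of the 2 lists were 2.21 and 0.85 with total UMIs. Scaling shifts all genes of a contrast by nearly the same amount, so this setting cannot check the gap between the lists.

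The helicase and its loader stood out among the S-phase genes. Mcm2 was at 130 CPM in azurophil progenitors, 18.1 CPM in Ltf-high cells of YO1 and 0.812 CPM in those of YO2, and its log2 difference was 2.66 ± 0.53 (SE, edgeR adjusted p = 0.0011). Mcm3 was at 204, 32.7 and 2.44 CPM in the same order (2.40 ± 0.43, edgeR adjusted p = 0.00051). Mcm6 was at 258 CPM against 39.4 and 7.31 CPM (2.47 ± 0.36, edgeR adjusted p = 8.52e-05). For all 3 helicase subunits the azurophil sum was above both Ltf-high sums. Cdc6, which loads the helicase on origins, was at 83.4 CPM against 11.4 and 3.25 CPM (2.53 ± 0.44, edgeR adjusted p = 0.000394). Gins2, part of the active helicase, was at 31.6 CPM against 4.03 and 0.406 CPM (2.62 ± 0.57, edgeR adjusted p = 0.00258), and its YO2 value rests on a single UMI. The S-phase genes that missed the threshold were 4. Pclaf, which binds the PCNA clamp, was at 560 CPM against 302 and 145 CPM (0.21 ± 0.27, edgeR adjusted p = 0.611), and Rrm2, the small subunit of ribonucleotide reductase, at 413 CPM against 192 and 64.2 CPM (0.62 ± 0.26, edgeR adjusted p = 0.0812). Tyms, which makes thymidylate, and Ccne1 (cyclin E1) had edgeR adjusted p of 0.108 and 0.0734.

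The other 8 S-phase genes were called higher in azurophil progenitors. The helicase subunits Mcm4, Mcm5 and Mcm7 were at 177, 309 and 165 CPM there, at 36.2, 61.4 and 32.9 CPM in Ltf-high cells of YO1 and at 11.8, 19.1 and 8.12 CPM in those of YO2, with log2 differences of 1.99 to 2.06. Pcna was at 90.2 CPM against 24.0 and 9.75 CPM, and Uhrf1, which guides DNA methylation to new strands, at 156 CPM against 44.2 and 13.8 CPM. Rrm1, the large subunit of ribonucleotide reductase, was at 210 CPM against 65.5 and 18.7 CPM, and Tk1, which salvages thymidine, at 172 CPM against 51.6 and 13.4 CPM. Ccne2 (cyclin E2) was at 66.9 CPM against 19.2 and 0.812 CPM. In all 8, azurophil progenitors were highest and Ltf-high cells of YO2 lowest of the 3 sums. Over the S-phase list, the level per gene ran from 30.8 to 560 CPM in azurophil progenitors, from 4.03 to 302 CPM in Ltf-high cells of YO1 and from 0.406 to 145 CPM in those of YO2.

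Mitotic genes were close between these classes on the TMM scale. Top2a, the topoisomerase that untangles chromosomes, was at 675 CPM in azurophil progenitors and at 395 and 231 CPM in Ltf-high cells, a log2 difference of -0.03 ± 0.35 (edgeR adjusted p = 0.982). Ccna2 (cyclin A2) was at 273 CPM against 156 and 91.8 CPM, and its log2 difference was 0.04 ± 0.25 (edgeR adjusted p = 0.955). Plk1, a mitotic kinase, was at 118 CPM against 57.7 and 41.4 CPM (0.04 ± 0.45, edgeR adjusted p = 0.981). In CPM each of these 3 genes was higher in azurophil progenitors than in both Ltf-high sums, so the direction of Top2a depends on the scaling. Cenpf, a kinetochore protein, was at 116 CPM against 71.6 and 58.5 CPM (-0.08 ± 0.30, edgeR adjusted p = 0.881), and Ube2c at 343 CPM against 190 and 177 CPM (-0.11 ± 0.29, edgeR adjusted p = 0.825). The 2 mitotic genes called higher in azurophil progenitors were Cdk1, the kinase that drives entry into mitosis, at 354 CPM against 144 and 75.5 CPM (0.63 ± 0.21, edgeR adjusted p = 0.0278), and the spindle kinase Aurka, at 74.4 CPM against 25.4 and 18.3 CPM (0.96 ± 0.33, edgeR adjusted p = 0.0333). The mitotic genes that follow were also highest in azurophil progenitors in CPM, and none was called. The B cyclins Ccnb1 and Ccnb2, partners of Cdk1, were at 157 and 188 CPM in azurophil progenitors, at 54.4 and 88.9 CPM in Ltf-high cells of YO1 and at 43.1 and 60.9 CPM in those of YO2. The checkpoint kinase Bub1b was at 58.6 CPM against 24.4 and 13.4 CPM, and Aurkb, the kinase of the chromosomal passenger complex, at 85.7 CPM against 36.2 and 24.8 CPM. The spindle proteins Tpx2, Prc1 and Nusap1 were at 186, 168 and 193 CPM against 98.5, 94.6 and 115 CPM in YO1 and 68.6, 66.2 and 87.7 CPM in YO2. Cdc20 was at 74.4 CPM against 39.4 and 39.8 CPM, and Smc2, a condensin subunit, at 225 CPM against 131 and 73.9 CPM. In Ltf-high cells of YO2 the mitotic list ran from 13.4 to 302 CPM, with 0 of 26 genes under 10 CPM, and 10 of 17 S-phase genes were under 10 CPM. Of the unassigned genes, Stmn1, which destabilises microtubules, was at 1092 CPM against 406 and 182 CPM (0.90 ± 0.21, edgeR adjusted p = 0.00341), and Cks1b, a partner of cyclin-dependent kinases, at 253 CPM against 63.1 and 47.1 CPM (1.42 ± 0.29, edgeR adjusted p = 0.00153).

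**Figure D2:**
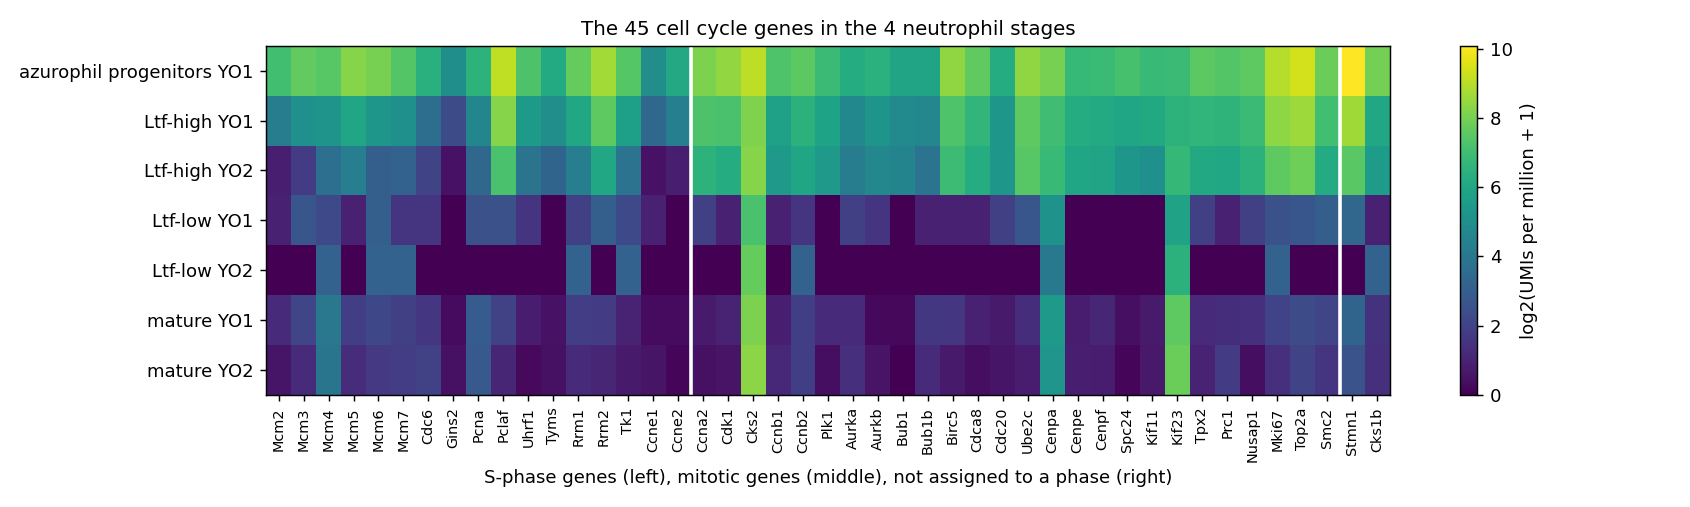
Levels of the 45 genes as log2(CPM + 1), 1 column per gene and 1 row per class and pool, with S-phase genes at the left, mitotic genes in the middle and unassigned genes at the right. Most columns are bright in azurophil progenitors and Ltf-high cells and dark in Ltf-low and mature cells, S-phase columns are darker in Ltf-high cells of YO2 than of YO1, and Cks2, Kif23, Cenpa and Mcm4 keep a signal in mature cells.

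The 2 pools differed in how much S-phase signal Ltf-high cells carried beside their mitotic signal. The ratio of S-phase UMIs to UMIs of the 23 mitotic genes was 0.658 in azurophil progenitors, 0.383 in Ltf-high cells of YO1 and 0.192 in those of YO2. With 1 library per pool this difference has no test, and the tissues and ages behind the cells of each pool cannot be told apart from the pool.

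Ltf-low cells, as first defined, held little of the program. Of the 45 members, 38 were lower in Ltf-low than in Ltf-high cells and 0 were higher, where 10.0% of all genes were called lower and 6.56% higher. The count was 11 of 17 S-phase genes, 25 of 26 mitotic genes and both unassigned genes. For folds over both pools, 3 UMIs over the class were counted where a gene had none. The median fold by which Ltf-high cells exceeded Ltf-low cells was then 10.8 for S-phase and 28.6 for mitotic genes. Of the mitotic genes, 22 of 26 were at least 10-fold higher. Genes with 1 or 2 UMIs kept their own count, which is under that floor, so the floor for all genes would lower their folds. Cdk1 (159-fold) and Birc5 (183-fold) rest on 1 UMI each. The log2 medians on this scale were -3.43 and -4.84, and the fitted median over all genes was -0.21. All 26 mitotic genes were lower in Ltf-low cells in both pools. Of the S-phase genes 17 of 17 were lower in YO1 and all but 1 in YO2, where the class has only 40 cells.

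The 5 members with the largest fitted differences had 0 UMIs in the Ltf-low cells of both pools, and their folds are bounds against 3 UMIs over the class, or 2.48 CPM. Cenpe, a kinetochore motor, was at 75.2 and 61.7 CPM in Ltf-high cells of YO1 and YO2, at least 29.3-fold higher, and at 107 CPM in azurophil progenitors, at least 43.0-fold higher. Cenpf, at 71.6 and 58.5 CPM, was at least 27.9-fold higher in Ltf-high cells and at least 47.0-fold higher in azurophil progenitors. Kif11, the motor that pushes spindle poles apart, was at 68.7 and 32.9 CPM in Ltf-high cells and 114 CPM in azurophil progenitors, at least 25.1-fold and 46.1-fold higher. Every one of these sums lay above the floor of the Ltf-low class. The fitted value of a gene at 0 depends on the prior count, and members that were detected reached larger ratios than these bounds, such as Top2a, 73.6-fold higher in Ltf-high cells with 6 UMIs in the Ltf-low class. Spc24, a kinetochore subunit, was at 60.5 and 39.8 CPM in Ltf-high cells and 141 CPM in azurophil progenitors, at least 22.9-fold and 56.7-fold higher. Plk1 was at least 22.0-fold higher in Ltf-high cells and at least 47.6-fold higher in azurophil progenitors. The edgeR adjusted p of these 5 genes ran up to 0.000386 for Plk1 in the contrast of Ltf-low with Ltf-high cells and up to 9.21e-05 for Plk1 in that of azurophil progenitors with Ltf-low cells.

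The smallest differences were those of Kif23, Cks2, Mcm6, Cenpa and Mcm3. Kif23, the motor of the central spindle that is needed for cytokinesis, was at 55.2 and 88.8 CPM in Ltf-low cells against 91.8 and 105 CPM in Ltf-high cells, and its log2 difference of -0.55 ± 0.20 missed the threshold (edgeR adjusted p = 0.0748). Cks2, a small subunit of cyclin-dependent kinase complexes, fell from 284 and 302 CPM to 145 and 210 CPM (-0.80 ± 0.22, edgeR adjusted p = 0.0202). Cenpa, the histone H3 variant of centromeres, fell from 127 and 110 CPM to 35.0 and 16.2 CPM (-1.95 ± 0.28, edgeR adjusted p = 0.000299). In each pool the Ltf-low value of these 3 genes was below the Ltf-high value. Mcm6 was at 7.37 and 8.08 CPM in Ltf-low cells against 39.4 and 7.31 CPM (-1.85 ± 0.65, edgeR adjusted p = 0.0645), with the pools in opposite order. Mcm3 was at 5.52 and 0 CPM against 32.7 and 2.44 CPM (-2.15 ± 0.85, edgeR adjusted p = 0.0988). In Ltf-low cells of YO1, 23 of 26 mitotic and 17 of 17 S-phase genes were under 10 CPM, as in those of YO2. The other members that missed the threshold were Cdc6, Ccne1, Mcm2 and Gins2, all S-phase genes that were already low in Ltf-high cells of YO2.

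Without the Ltf-low sum of YO1, which leaves 40 cells on that side, 10 members were called. With the classes cut by share of UMIs in place of UMI numbers, 28 were called and the median log2 difference over the members moved from -5.19 to -1.70. Azurophil progenitors were higher than Ltf-low cells for 44 of 45 members, where 21.9% of all genes were called higher and 19.3% lower, with Kif23 as the exception (0.28 ± 0.24, edgeR adjusted p = 0.361). Without the Ltf-low sum of YO1 this count was 20. The smallest called differences there were those of Cks2, Cenpa, Pcna and Aurka, with log2 values of 1.10, 2.23, 3.70 and 4.15. Pcna, the polymerase clamp, was at 90.2 CPM in azurophil progenitors against 4.604 and 0 CPM, and Aurka at 74.4 CPM against 2.76 and 0 CPM.

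Within the Ltf-high class the sums of both lists were lower in cells with more of the late genes Retnlg and Mmp8. This split was chosen after the data were seen and is a description. In YO1, the S-phase sum was 2124, 1800, 1162, 529, 233 and 317 CPM in cells with 0, 1 to 4, 5 to 9, 10 to 19, 20 to 49 and 50 or more UMIs of Retnlg and Mmp8. In YO2 it was 1025, 680, 500, 260, 210 and 30.6 CPM. The 23 mitotic genes gave 5503, 4729, 3817, 1628, 621 and 678 CPM in YO1 and 5367, 3606, 2478, 1515, 1232 and 70.8 CPM in YO2. Both sums fell at each step in YO2, and in YO1 they fell until 20 to 49 UMIs and were slightly higher in the last bin. Cells with no UMI of Retnlg or Mmp8 thus carried about as much mitotic signal in the 2 pools, and the S-phase signal of YO2 was lower in every bin. Cells of the bins held medians of 4138, 4098.5, 3978.5, 3332, 3043 and 2933 UMIs in YO1, and of 5064, 4661, 4566.5, 4247, 4786 and 4200 UMIs in YO2, and the part of depth in these values was not tested.

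At 1000 UMIs a cell, the share positive for the 23 mitotic genes was 54.4% (49.2 to 59.5) at 0 UMIs of Retnlg and Mmp8, 44.2% at 1 to 4, 30% at 5 to 9, 10.9% at 10 to 19, 3.51% at 20 to 49 and 4.71% (3.58 to 6.08) at 50 or more in YO1. In YO2 it was 42.9% (28.8 to 57.8), 26.6%, 22.0%, 10.0%, 8.60% and 0.483% (0.0122 to 2.66). The intervals of the first and the last bin did not overlap in either pool. The 56 positive cells of the last bin of YO1 had a median of 8294.5 UMIs before thinning, against 2877.5 in the other cells of that bin. In the first bin the values were 5310 and 3309 UMIs. The part of depth, or of barcodes with 2 cells, in these late positive cells was not tested.

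**Figure D3:**
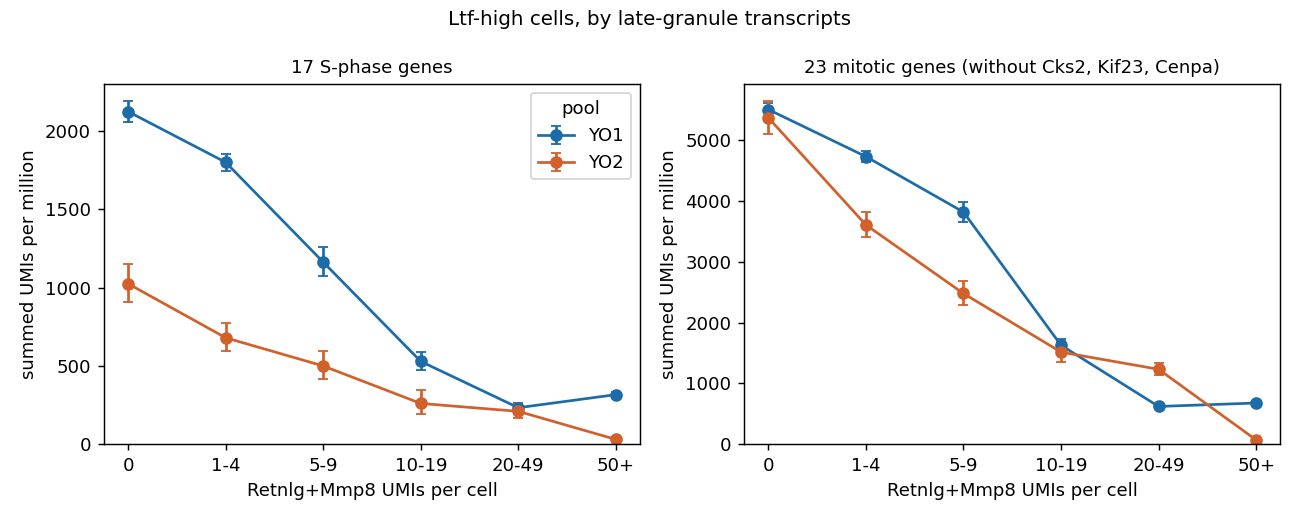
Summed CPM of the 17 S-phase genes (left) and of 23 mitotic genes without Cks2, Kif23 and Cenpa (right) in Ltf-high cells by their UMIs of Retnlg and Mmp8, with exact 95% counting intervals. The lines fall from 2124 and 1025 CPM (S phase) and from 5503 and 5367 CPM (mitotic) in cells with 0 UMIs, and YO1 keeps 317 and 678 CPM in the last bin, where YO2 has 30.6 and 70.8 CPM.

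Single members followed the sums. Mki67, the proliferation antigen that coats mitotic chromosomes, was at 669 CPM under 5 UMIs of Retnlg and Mmp8, 189 CPM at 5 to 49 and 89.3 CPM at 50 or more in YO1, and at 527, 151 and 10.6 CPM in YO2. Birc5 (survivin), a subunit of the chromosomal passenger complex, was at 314, 89.9 and 46.7 CPM in YO1 and 283, 129 and 4.22 CPM in YO2. Cks2 was at 454, 203 and 166 CPM in YO1 and 504, 303 and 173 CPM in YO2. Kif23 was at 160, 57.7 and 45.7 CPM in YO1 and 217, 86.6 and 50.7 CPM in YO2. Both kept a clear signal in the latest Ltf-high cells of both pools. Cells under 5 UMIs numbered 911 in YO1 and 119 in YO2.

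Along Ltf the sums did not fall steadily. In cells with Camp and Ngp, the S-phase sum was 31.5, 60.7, 195, 267, 811 and 1170 CPM in YO1 at 0, 1 to 4, 5 to 9, 10 to 19, 20 to 49 and 50 or more Ltf UMIs, and 0, 77.6, 48.7, 10.03, 356 and 343 CPM in YO2, where the first 3 bins held 22, 18 and 16 cells. Cells rich in Ltf UMIs thus carried most of the signal. By Ltf as a share of a cell's UMIs, the S-phase sum was 35.9 CPM under 0.1%, 1581 CPM between 0.5% and 1% and 54.0 CPM at 2% or more in YO1. In YO2 it was 44.9, 781 and 14.3 CPM in the same bins. The 23 mitotic genes were highest in the same bin, at 4313 and 3891 CPM. Among the 518 Ltf-low cells of YO1, the 26 with under 5 UMIs of Retnlg and Mmp8 had 306 CPM for S phase and 590 CPM for the 23 mitotic genes, and the other 492 had 36.5 and 22.1 CPM. The azurophil class was high whether or not specific granule genes were on: the S-phase sum was 2766 CPM in 56 cells with under 10 UMIs of Camp and Ngp, 3372 CPM in 31 cells with at least 10 and under 5 Ltf UMIs, and 3342 CPM in 55 cells with at least 5 Ltf UMIs. These 31 cells held both granule sets with little Ltf, and their 23 mitotic genes summed to 5252 CPM.

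Between Ltf-high and mature cells, 42 of 45 members were higher in Ltf-high cells and 1 was lower, where 24.9% of all genes were called higher and 25.0% lower. The count was 16 of 17 S-phase, 24 of 26 mitotic and both unassigned genes. The median log2 difference was 3.79 for the S-phase and 6.16 for the mitotic list, against -0.03 for all genes. As log2 ratios of CPM with 1 CPM added, the S-phase median was 3.17 in YO1 but 1.34 in YO2, where 15 of 17 genes were higher. The mitotic medians were 5.18 and 4.89. The largest differences were those of mitotic genes. Bub1, a spindle checkpoint kinase, was at 27.5 and 22.3 CPM in Ltf-high cells of YO1 and YO2 and at 0.159 and 0 CPM in mature cells (8.06 ± 0.59, edgeR adjusted p = 6.38e-08). Ccna2 was at 156 and 91.8 CPM against 0.637 and 0.371 CPM (7.84 ± 0.30, edgeR adjusted p = 9.85e-11). Spc24 was at 60.5 and 39.8 CPM against 0.319 and 0.124 CPM (7.69 ± 0.38, edgeR adjusted p = 2.1e-09). Both Ltf-high sums of these genes lay above both mature sums. Ube2c was at 190 and 177 CPM against 1.51 and 0.743 CPM (7.34 ± 0.33, edgeR adjusted p = 3.44e-10), and Cdca8 (borealin), a partner of Birc5, at 98.8 and 76.0 CPM against 0.876 and 0.309 CPM (7.16 ± 0.27, edgeR adjusted p = 9.85e-11). In mature cells 23 of 26 mitotic and 16 of 17 S-phase genes were under 10 CPM in both pools.

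A few members stayed at measurable levels in mature neutrophils. Kif23 (chr9:61915905-61946774, minus strand, GRCm38) was at 191 and 226 CPM in mature cells against 91.8 and 105 CPM in Ltf-high cells, so it was lower in Ltf-high cells by a log2 difference of -1.14 ± 0.15 (edgeR adjusted p = 1e-05). Cks2 (chr13:51645232-51650660, plus strand) was at 277 and 320 CPM in mature cells against 284 and 302 CPM in Ltf-high cells (-0.09 ± 0.18, edgeR adjusted p = 0.728). For Kif23 both mature sums lay above both Ltf-high sums, and for Cks2 the sums overlapped. Cenpa (chr5:30666777-30674830, plus strand) was at 42.4 and 37.4 CPM in mature cells against 127 and 110 CPM (1.499 ± 0.19, edgeR adjusted p = 7.19e-06). Mcm4 (chr16:15623897-15637400, minus strand) was at 15.6 and 14.3 CPM against 36.2 and 11.8 CPM (0.65 ± 0.28, edgeR adjusted p = 0.0659), with the pools in opposite order. Pcna was at 6.69 and 6.13 CPM against 24.0 and 9.75 CPM (1.39 ± 0.27, edgeR adjusted p = 0.000452). All 4 located genes are protein-coding, and no other gene of the count matrix overlaps them. In such sums fewer cells with a gene and less RNA per cell cannot be told apart.

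**Figure D4:**
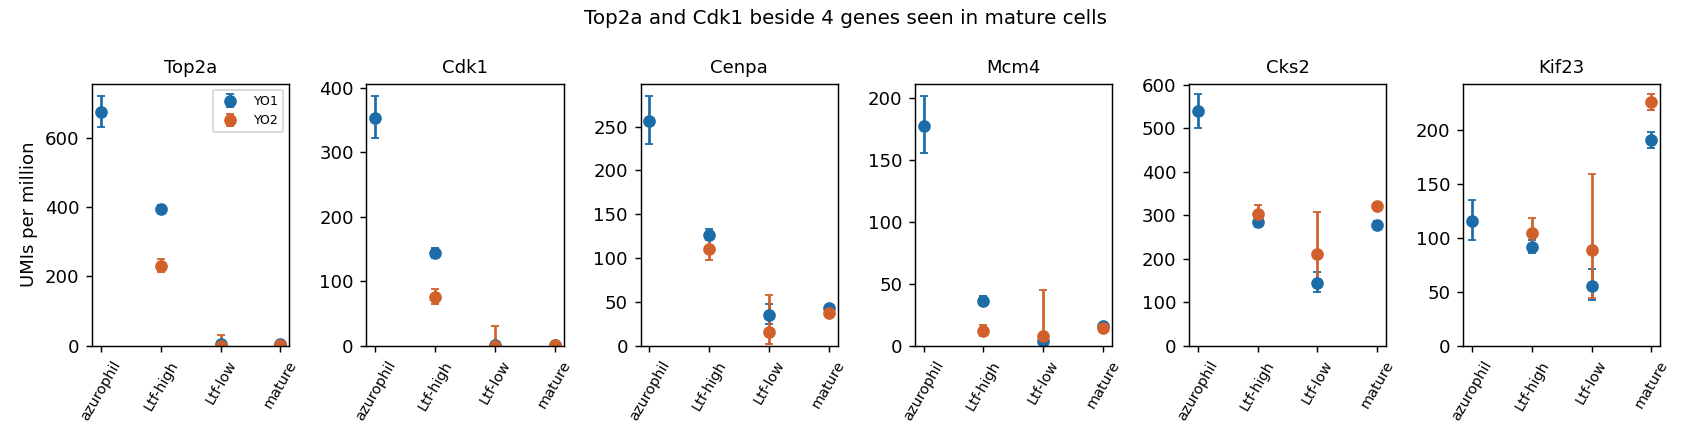
CPM of 6 genes in the 4 neutrophil stages, 1 point per pool with exact 95% counting intervals. Top2a and Cdk1 are near 0 in Ltf-low and mature cells, Cenpa and Mcm4 keep a part of their level, Cks2 is at 277 and 320 CPM in mature cells and Kif23 is highest there, at 191 and 226 CPM.

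Other genes of the program were read from a list of 46 further proliferation genes. In Ltf-low against Ltf-high cells 37 of them were lower and 0 higher, where 10.0% of all genes were called lower and 6.56% higher. In Ltf-high against mature cells 43 were higher and 1 lower, where 24.9% of all genes were called higher and 25.0% lower. Foxm1, a transcription factor of mitotic genes, was at 29.5 and 9.74 CPM in Ltf-high cells and 0 in Ltf-low cells of both pools. The gene lower in Ltf-high than in mature cells was Pttg1 (securin), which restrains the separation of sister chromatids. It was at 24.6 and 58.9 CPM against 169 and 236 CPM (-2.45 ± 0.23, edgeR adjusted p = 3.89e-07). Kif23 was also higher in mature than in Ltf-high cells; in Ltf-low against Ltf-high cells neither was called, with log2 differences of 0.68 for Pttg1 and -0.55 for Kif23. E2f2, an activating E2F, was at 186 and 194 CPM in Ltf-low cells and 161 and 115 CPM in Ltf-high cells, a difference that was not called, while E2f1 fell from 21.8 and 12.998 CPM to 3.68 and 8.08 CPM and was called.

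Of 28 genes of cyclin D, kinase inhibitors and exit factors, 26 were tested, and 5 were higher and 6 lower in Ltf-low than in Ltf-high cells. Of all genes, 6.56% were called higher and 10.0% lower there. The 5 that rose were the antiproliferative factors Btg1 and Btg2, Mxd1, an antagonist of Myc, Gadd45a and Cdkn1b. The 6 that fell were Cdkn2c (p18), an inhibitor of Cdk4 and Cdk6, by 3.76 on the log2 scale, Cebpe, a factor of granulocyte maturation, by 2.74, the pocket protein Rbl1 by 1.97, Cdk6 by 1.92, Cdk2 by 1.46 and Fzr1, an activator of the anaphase-promoting complex, by 1.01. Inhibitors and exit factors thus went in both directions, and 15 of the 26 were not called. Cdkn2c was at 40.9 and 17.9 CPM in Ltf-high and 2.76 and 0 CPM in Ltf-low cells, and Cebpe at 248.8 and 215 CPM and 42.4 and 24.2 CPM. Mxd1 was at 139 CPM in azurophil progenitors, 909 and 1157 CPM in Ltf-high cells, 2249.5 and 2172 CPM in Ltf-low cells and 3150 and 3396 CPM in mature cells, higher in Ltf-low than in Ltf-high cells by 1.13 ± 0.21 on the log2 scale (edgeR adjusted p = 0.00214). Cdkn1b (p27), an inhibitor of cyclin-dependent kinases, was at 265 and 421 CPM in Ltf-high, 450 and 549 CPM in Ltf-low and 850 and 1062 CPM in mature cells. Gadd45a was at 136 and 248.6 CPM in Ltf-high and 363 and 525 CPM in Ltf-low cells. These 3 genes were higher in Ltf-low than in Ltf-high cells in each pool. Myc was at 48.1 CPM in azurophil progenitors and at 1.10 and 1.62 CPM in Ltf-high cells (4.74 ± 0.42, edgeR adjusted p = 2.41e-06). Cdk4 was at 175 CPM against 14.0 and 4.87 CPM and Cdk6 at 389 CPM against 37.6 and 27.2 CPM, both called. These kinases of early G1 were thus lower in the sums of the whole Ltf-high class. Their level in only those Ltf-high cells that carried mitotic genes was not tested. Cdk2, the kinase of S-phase entry, was at 228 CPM against 158.9 and 95 CPM and was not called.

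The other cell types in the sort also held cycle genes, and which type held most depended on the list, the pool and the measure. The 275 and 460 Cd79a cells of YO1 and YO2 had S-phase sums of 597 CPM (530 to 671) and 403 CPM (367 to 441) and sums of the 23 mitotic genes of 960 CPM (875 to 1052) and 365 CPM (331 to 402). The 52 and 515 Jchain cells had 348 and 158 CPM for S phase and 668 and 247 CPM for the mitotic genes. The 196 and 401 C1qa cells had 244 and 167 CPM for S phase and 134 and 68.9 CPM for the mitotic genes, so the S-phase sum was above the mitotic one. The 24 and 27 Cd3e cells, too few to be fitted, had 437 and 421 CPM for S phase and 59.6 and 75.6 CPM for the mitotic genes. Of each of these classes YO1 had the higher value for both sums except for the mitotic sum of Cd3e cells. Without the deepest 5% of cells, Cd79a cells had 366 and 269.7 CPM for S phase and 487 and 324 CPM for the 26 mitotic genes (1240.5 and 597 CPM with them). Jchain cells of YO2 then had 157 and 362 CPM for the 2 lists. In YO1 24 of 52 Jchain cells were left, at 111 CPM for S phase and 127 CPM for the 26 mitotic genes. With all 52 cells these sums were 348 and 756 CPM. Cells in no class had 311 and 226 CPM for S phase and 483 and 270 CPM for the mitotic genes.

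Against mature neutrophils, 37 members were higher and 2 lower in Cd79a cells, where 29.0% of all genes were called higher and 28.2% lower. In Jchain cells 40 were higher and 3 lower, with 34.2% of all genes higher and 28.9% lower, and in C1qa cells 21 were higher and 4 lower, with 31.6% higher and 28.8% lower. Kif23 and Cks2 were lower in all 3 classes than in mature cells. Kif23 was at 43.6 and 45.9 CPM in Cd79a cells, 18.98 and 26.6 CPM in Jchain cells and 44.6 and 56.2 CPM in C1qa cells, each below the 191 and 226 CPM of mature cells. Ccna2 was at 56.0 and 21.7 CPM in Cd79a cells and 28.5 and 13.2 CPM in Jchain cells. In C1qa cells 11 of 17 S-phase genes but 8 of 26 mitotic genes were called higher. The Jchain count was 25 without the YO2 sum, 20 without the deepest 5% of cells and 23 with cells thinned to 1000 UMIs. The C1qa count was 14 without the pool block, 12 without the deepest 5% of cells and 11 with thinned cells.

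At equal depth, 3.37% (1.36 to 6.81) of 208 Cd79a cells in YO1 and 2.78% (1.44 to 4.80) of 432 in YO2 were positive for the 23 mitotic genes. Jchain cells were positive at 6.82% (1.43 to 18.7) of 44 and 1.96% (0.946 to 3.58) of 509, and C1qa cells at 2.14% (0.586 to 5.39) of 187 and 0.253% (0.00641 to 1.40) of 395. The interval of C1qa cells of YO2 overlaps the mature background of 0.134%, and the other 5 lie above the mature background of their pool. Plasma cell markers summed to 12206 and 14104 CPM in Cd79a cells, and their part in the Cd79a values was not tested.

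Of the members, 11 overlap a gene on the other strand that is also counted, namely Mcm7, Gins2, Pclaf, Tk1, Ccne2, Ccna2, Cdca8, Cdc20, Ube2c, Prc1 and Nusap1, and whether counting used the strand is not given in the sources used here. Pcna, Tyms, Ccnb1 and Ccnb2 have annotated pseudogenes that could share reads with them. None of Kif23, Cks2, Cenpa and Mcm4 is among these genes.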

How the data were processed

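The authors deposited 1 matrix of UMI counts, whole numbers for each gene in each cell barcode, with no scaling seen in the values. The build was mm10, per the submitters' processing notes. For alignment, annotation and cell calling, the method is not given in the sources used here. Sample tag and antibody libraries were not analysed here. The pools had 20352 and 17720 barcodes with 39713846 and 41839786 UMIs. The 45 members, the gene lists and the cell type rules were chosen with earlier results of these data known.

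Counts were summed per pool and class where at least 30 cells were present, which gave 15 sums with 6 residual degrees of freedom. The test was edgeR's two-sided quasi-likelihood test (version 4.0.16, R 4.3.3) after filterByExpr and TMM scaling, blocked on the pool, with DESeq2 1.42.0 and limma 3.58.1 as alternatives. CPM was computed from the deposited counts. The labels do not say that the pools came from separate animals. The p-values rest on how classes varied between these 2 pools once the shift common to a pool was taken out. This spread was estimated over all classes together. The pool is a shared cartridge per the series design. Deviations of the same pool correlated at 0.03 to 0.76 over 21 pairs of classes, 14 of them over 0.1. The named genes were any of the 45 members, with values in every pool for the 5 members of largest and smallest log2 difference in each contrast of stages, and measured genes of 2 further lists. Gene positions are those of GENCODE M21 (GRCm38, the same assembly as mm10); promoter windows are RefSeq's (GRCm38.p6). On simulated data the fit recovered 82 of 100 genes changed by log2 2 and 32 of 100 changed by log2 1 in the contrast of Ltf-low with Ltf-high cells. There, counts were drawn for 12092 genes, 10847 of them passed the filter, and 8 of the 11892 genes drawn without a change were called. Figures were drawn with matplotlib 3.10.9, and other steps used numpy 2.4.6, pandas 2.3.3 and scipy 1.17.1 in Python 3.11.15. Added after the data were seen were the contrast of azurophil progenitors with Ltf-high cells, the 23-gene mitotic list, and the divisions by Retnlg and Mmp8, by Ltf share and within the azurophil class.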

Additional observations from a re-analysis of the deposited data

Results flagged for a closer look

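Ccne1 (cyclin E1), called higher in Ltf-high than in mature cells, moved in opposite directions in the pools: the log2 ratio of Ltf-high to mature CPM, with 1 CPM added, was 3.06 in YO1 and -0.0275 in YO2. The difference between the pools was not tested, and Ccne1 was at 0.406 CPM in Ltf-high cells of YO2, or 1 UMI.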

How the results depend on the processing

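Counts of called members stayed within 1.5 times the main count under most alternatives. For Ltf-high against mature cells they ranged from 35 to 43, and for Cd79a cells against mature cells from 28 to 42. Leaving out 1 sum at a time gave 20 to 44 for azurophil progenitors against Ltf-low cells and 10 to 43 for Ltf-low against Ltf-high cells, each lowest without the Ltf-low sum of YO1. It gave 25 to 40 for Jchain cells, lowest without the YO2 Jchain sum. Thinning to 1000 UMIs gave 23 calls for Jchain cells, 11 for C1qa cells and 10 for azurophil progenitors against Ltf-high cells. Leaving out the deepest 5% of cells gave 20 for Jchain and 12 for C1qa cells, and total UMIs gave 33 for azurophil progenitors against Ltf-high cells. The cause was not tested in any of these. Without the pool block, the paired fit's counts became 44 for azurophil progenitors against Ltf-low cells, 34 for Ltf-low against Ltf-high cells, 42 for Ltf-high against mature cells and 14 for C1qa cells. Total UMIs shifted the median over all genes by over 0.1 for contrasts with azurophil, Cd79a and C1qa cells. Cd3e cells had under 30 cells per pool and no fit as planned. With 40 Ltf-low cells in YO2, low S-phase genes could not be resolved there.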
